A study of Homo sapiens with 22 samples.

Results

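The sites described here are the regions of the genome where N-MYC and WDR5 were both called in both CHP-134 and IMR-32 cells, 2 neuroblastoma lines in which the N-MYC gene is amplified. In each line the peaks of an antibody were merged, regions with peaks in at least 2 libraries were kept, and an N-MYC region and a WDR5 region that shared at least 1 bp were joined into a cobound site. Of 431 cobound sites in IMR-32, 310 overlapped one of the 1426 cobound sites of CHP-134, and these 310 shared sites were chosen by the DMSO lists of CHP-134 and by the IMR-32 lists. What those lists show at them is therefore a description with no test, except where a DMSO list was held out and the sites chosen again without it, whereas the compound lists, the sequence and the genes nearby played no part in the choice. The groups were CHP-134 cells given DMSO (3 libraries per antibody), CHP-134 cells given a compound (again 3 per antibody), both for 4 h by the labels, and IMR-32 cells with no treatment (2 per antibody). The DMSO dose is written as 0.0005% in one field of the labels and as 0.005% in another. The labels name the compound in several ways, so it is called the compound here. A custom serum was used for N-MYC and a commercial antibody for WDR5, and 3 ChIPs were pooled into each library. The CHP-134 libraries were sequenced as single reads and the IMR-32 libraries as paired ends, so the line and the kind of run cannot be told apart. The study's methods describe the experiments as independent repeats, and the labels do not say whether libraries of a group came from separate cultures.

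N-MYC is a transcription factor of the MYC family that pairs with MAX and binds E-boxes, best of all the sequence CACGTG. Its gene, MYCN, is amplified in many high-risk neuroblastomas. WDR5 is a WD-repeat protein best known as a core subunit of the MLL/SET histone H3 lysine 4 methyltransferases. It also binds MYC proteins through the conserved Myc Box IIIb, and its best known sites across cell types lie at genes of the translation machinery.

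The sequences printed here show 2 kinds of shared site, those with CACGTG and high N-MYC and those with high WDR5 and no CACGTG. Other sites are of neither kind, and SNHG15, printed with the first, also ranked high by WDR5. The first kind is shown by the E-box next to the IMR-32 N-MYC summit at 6 of the 10 sites with the highest N-MYC rank, read on the plus strand of GRCh37 (hg19), with CACGTG in capitals. The windows of 100 bp on each side of the summit held 1 CACGTG at DDX42 and SNHG15, 2 at DNAAF5, 3 at FAM118B and NCL, and 7 at GET4.
DNAAF5, chr7:807560-807589: tgggagggcggaCACGTGgctccgggcaga
GET4, chr7:915970-915999: ccgcctctgggtCACGTGttgcctgcggac
FAM118B, chr11:126081552-126081581: gcgagccaagacCACGTGgagaagggcgac
NCL, chr2:232328551-232328580: tccggggcccacCACGTGtcggcttgccag
DDX42, chr17:61851197-61851226: gctgtgtgggacCACGTGgccagaggcaag
SNHG15, chr7:45026006-45026035: gagaggaagtagCACGTGtagtgaaggctt

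The second kind is shown by 4 of the 15 sites with the highest WDR5 rank, where the 100 bp on each side of the N-MYC summit held no CACGTG. Each window holds 100 bases of the plus strand of GRCh37 around the IMR-32 WDR5 summit, outside annotated untranslated regions, and the capitals mark 11 bases at that summit. The WDR5 summit of CHP-134 lay 27 bp below that of IMR-32 at EEF2, 32 bp above it at SNRPB, 1 bp below it at RPS3 and 5 bp above it at CCT7, in plus strand coordinates.
EEF2, chr19:3985261-3985360: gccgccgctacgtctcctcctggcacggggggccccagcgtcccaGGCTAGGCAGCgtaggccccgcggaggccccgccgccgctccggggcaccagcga
SNRPB, chr20:2451230-2451329: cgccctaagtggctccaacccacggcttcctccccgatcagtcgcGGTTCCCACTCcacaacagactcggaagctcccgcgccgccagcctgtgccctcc
RPS3, chr11:75110664-75110763: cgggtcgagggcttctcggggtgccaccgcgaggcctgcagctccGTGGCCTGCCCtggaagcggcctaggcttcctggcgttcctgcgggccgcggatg
CCT7, chr2:73461517-73461616: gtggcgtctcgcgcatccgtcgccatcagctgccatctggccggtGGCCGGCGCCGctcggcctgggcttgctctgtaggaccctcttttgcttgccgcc

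The deposited lists give for each peak a fold over local background, which was never compared between libraries. A site was given the rank of its highest peak in a list, as a percentile, the percent of that list's peaks with a fold at or below it. A missing peak means that no call was made at the q-value used, and the protein may still have been there. The lists hold no read totals, so depth is unknown. Their lengths ran from 9125 to 15286 peaks for N-MYC under DMSO, 2964 to 12313 for N-MYC under the compound, 1671 to 4891 for WDR5 under DMSO and 15 to 5973 for WDR5 under the compound. In all, 3 compound libraries stood apart before any result was drawn: WDR5 replicate 2 (15 peaks), WDR5 replicate 3 (401 peaks) and N-MYC replicate 2 (2964 peaks). Values are given for each library so that every result can be read without them. Intervals on shares are exact Clopper-Pearson 95% intervals over sites and cover counting error only.

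At the edge of the rule, 251 shared sites had WDR5 peaks in all 3 DMSO lists and 58 in 2 of them. In 240 sites both proteins were called in all 6 DMSO lists. The N-MYC and WDR5 regions of IMR-32 overlapped by a median of 505 bp, and the smallest overlap was 35 bp. The shared sites overlapped their CHP-134 counterparts by a median of 986.5 bp, with the smallest overlaps at SGO1 (358 bp), AKAP10 (376 bp) and MARCHF8 (380 bp). Just outside the rule were the 121 cobound sites of IMR-32 alone. In CHP-134, 76 of them had an N-MYC region without WDR5, 11 a WDR5 region without N-MYC, 1 had both without an overlap and 33 had neither. None lay within 1 kb of a CHP-134 cobound site, so no near miss by distance was left out.

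Most shared sites lay at promoters, as the paper reports for the overlapped N-MYC and WDR5 sites of CHP-134 as a whole. The location is therefore not particular to the shared sites. The middle of 294 of them (94.8%, 91.8 to 97.02%) lay within 1 kb of a TSS of a protein-coding or long noncoding RNA gene in GENCODE 44, 7 lay 1 to 10 kb away and 9 over 10 kb away. On the canonical transcript of the gene that gives the site its name, 129 middles were upstream of the TSS. A further 111 were in an intron, 44 in a UTR and 15 in a coding exon. Another 6 were in an exon of a noncoding transcript and 5 downstream of the gene. One coding gene lay within 1 kb at 213 sites, 68 sites had 2 or more and 13 had a noncoding gene only. Together these were 349 protein-coding genes, or 1.73% of the 20149 in the annotation, and 103 long noncoding RNA genes. The 9 distant sites were nearest to LSM3, SPEN, KPNA2, GNGT2, NARF-IT1 and 4 genes known by an identifier only. Chromosome 1 held 41 sites, chromosome 17 held 37 and chromosome 12 held 29.

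Ribosomal protein genes were the largest group among the gene lists. They code for the structural proteins of the cytosolic ribosome, and 44 of the 80 on the list (55%) had a TSS within 1 kb of a shared site, against 51 at all CHP-134 cobound sites and 45 at all IMR-32 cobound sites. So all but 1 of the ribosomal protein genes at IMR-32 cobound sites were at shared ones. The large subunit gave 31 of its 47 genes, among them RPL3, RPL5, RPL7A and RPL23. The small subunit gave 13 of its 33, among them RPS2, RPS3, RPS6 and RACK1. Their median WDR5 percentile, the mean of both lines weighted equally, was 97.9 (range 67.5 to 99.6), and only RPL4 (84.3) and RPL23A (67.5) were below 90. The same median over all 310 sites was 75.5. By N-MYC the ribosomal protein sites ranked no higher than the rest, with a median of 72.1 against 76.4 over all shared sites.

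RPL5, a protein of the large subunit that is assembled with the 5S RNA, led the shared sites by WDR5. Its site, chr1:93297357-93298420, held the peak with the highest fold in both IMR-32 WDR5 lists, at 307 and 277 times local background. In the DMSO lists its WDR5 fold was 52.5, 59.6 and 85.8 in replicates 1, 2 and 3, which placed it at percentiles 99.4, 98.5 and 99.9. BRD2 (a BET bromodomain protein; the second of its shared sites, chr6:32937826-32941346), NACA (a subunit of the nascent polypeptide-associated complex), RNPS1 (a splicing regulator of the exon junction complex) and EEF2 (the translocase of translation elongation) came next, with means of 98.96 to 99.2. The other sites among the 15 highest were RPL15, RPL29, SNRPB, RPS3, RPS10, PRRC2A, RPL7A, SERBP1, CCT7 and CSNK1D.

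Other genes of protein synthesis were at fewer of the sites. The list of translation initiation and elongation factors held 55 genes, NACA of the nascent polypeptide-associated complex among them. Of these genes 7 were at shared sites: EIF2B1, EIF3D, EIF4A2, EIF4G1, EEF2, ABCF1 and NACA, with a median WDR5 percentile of 94.3. Of 28 small nucleolar RNA host genes, whose introns carry RNAs that guide modification of ribosomal RNA, 7 were: SNHG9, SNHG15, SNHG17, SNHG20, SNHG21, SNHG25 and GAS5, with a median of 96.9. Of 68 genes of ribosome biogenesis and RNA polymerase I, NCL, NPM1 and BYSL were (4.41%), and of 78 mitochondrial ribosomal proteins MRPL27 and MRPL48 (2.56%), beside 1.73% of all protein-coding genes. Of the 22 aminoacyl-tRNA synthetases none was, which is near that background. The lists were chosen with results of these data known, so the counts describe them and are not independent evidence.

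Splicing and cell cycle genes made up most of what else the lists covered. Of 97 splicing genes 14 were at shared sites, among them SNRPB and SNRPE of the Sm core, SF3B3 of the U2 particle and the SR proteins SRSF1, SRSF7 and SRSF11. Of 98 cell cycle and replication genes 9 were: CDC7, CDK4, CDKN2C, E2F3, FBXO5, MCM3, MCM4, MCM7 and RBL1. Of 108 DNA repair genes 6 were: APEX1, PRKDC, RAD9A, RAD52, TDG and UNG. The chaperonin that folds actin and tubulin gave CCT4 and CCT7 of its 8 genes on the list, and nucleotide and one-carbon synthesis gave AHCY and NME1 of 35. From the MYC network, only DPY30 of 21 genes was found, which codes for a partner of WDR5 in the methyltransferase complexes. No proteasome subunit, oxidative phosphorylation gene, replication-dependent histone or adrenergic core transcription factor was at a shared site, out of 33, 80, 58 and 21. With 1.73% of all coding genes at shared sites, counts of 0 in lists of this size are near the background. At 214 of the 310 sites no gene was on any list.

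**Figure D1:**
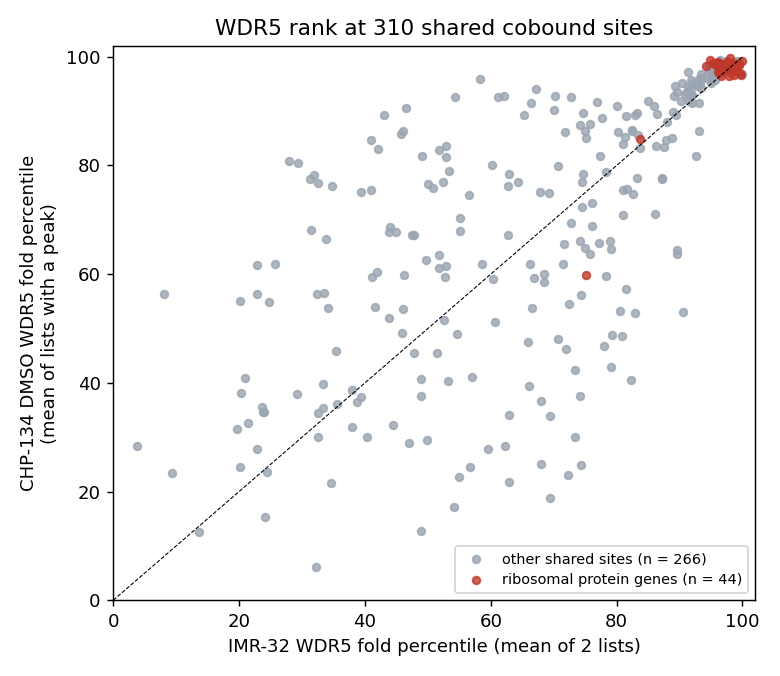
WDR5 rank at the 310 shared sites in both lines. Each point is 1 site, the x axis is its mean WDR5 fold percentile over the 2 IMR-32 lists and the y axis that over the CHP-134 DMSO lists in which it had a peak. The sites of ribosomal protein genes (red) gather at the upper right, with a median of 97.9 over both lines, apart from RPL4 and RPL23A, while the other sites (gray) spread widely around the dashed line of equal rank.

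WDR5 ranked the shared sites similarly in both lines. Across the sites, the Spearman correlation of WDR5 percentiles between a DMSO list and an IMR-32 list was 0.787 to 0.813 over 277 to 308 sites, not far from the 0.851 to 0.863 between DMSO lists. For N-MYC the same correlation between lines was 0.541 to 0.615 over 296 to 309 sites. The sites compared share libraries and carry no p. The 2 proteins did not rank the sites alike, since N-MYC and WDR5 of the same replicate correlated at -0.0638 to 0.122 under DMSO and at 0.0177 in IMR-32. The difference in WDR5 percentile, CHP-134 minus IMR-32, had a median of 1.28 and its size a median of 1.06 at ribosomal protein sites and 9.92 at the other sites. Ribosomal protein sites lie near the top of the scale in both lines, which bounds their difference, so the smaller value does not show that they were steadier.

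A few sites differed widely between the lines in WDR5 rank. In favor of IMR-32 stood AEN (a p53-induced exonuclease), with WDR5 percentiles of 7.56 and 30.2 in the 2 DMSO lists that had a peak and 73.1 and 65.9 in IMR-32. POU2F1, NLN, SEPTIN9 and TOMM20 followed, with differences of 43.0 to 49.4 points in the same direction. In favor of CHP-134 stood TDG (a DNA glycosylase), with 84.6 and 76.8 under DMSO and none in replicate 3, against 8.45 and 47.3 in IMR-32. NOL8, RPIA, NUMBL and CACYBP were the next in that direction. At both AEN and TDG the groups did not overlap, which the choice of these sites fixes.

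The summits of each protein lay close together in the lines. The IMR-32 and CHP-134 summits were a median of 46 bp apart for N-MYC and 37 bp apart for WDR5. At ribosomal protein sites the WDR5 summits of the lines were 11.5 bp apart, against 42 bp at the other sites, and 90.9% lay within 50 bp. At RPS3 and ZBTB37 (a zinc finger protein, whose site also holds GAS5) they were 1 bp apart. Within IMR-32, the N-MYC and WDR5 summits of a site were a median of 118.5 bp apart, and in CHP-134 103 bp. They were closer at ribosomal protein sites (52 and 49 bp) than at the others (149 and 132 bp). The highest of the 4 WDR5 tiers defined below, with 42 of these 44 sites, gave similar values. Its WDR5 summits were 17.5 bp apart between lines, and its N-MYC and WDR5 summits 54.5 and 52.5 bp apart. In the other tiers these were 56 bp, and 168 and 148.5 bp. Ribosomal protein genes and high WDR5 rank are thus not told apart here. The widest gap between N-MYC and WDR5 summits was at E2F3, with 1450 bp in IMR-32 and 1386 bp in CHP-134.

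Position relative to the TSS differed with the WDR5 rank. In order to describe this, the sites were cut into 4 tiers of 77 or 78 sites by their mean IMR-32 WDR5 percentile, a split chosen after values had been seen, so no test is given on it. The highest tier (78 sites with percentiles of 93.5 or more) held 42 of the 44 ribosomal protein sites. In it the WDR5 summit lay a median of 114 bp downstream of the TSS in IMR-32 and 124 bp in CHP-134. The N-MYC summit lay 96.5 and 86 bp downstream. Each distance was taken from the nearest TSS of the gene that gives the site its name. At the 68 shared sites with 2 or more coding genes within 1 kb, its sign can depend on that choice. In the other tiers the N-MYC summit was upstream, at -56 bp in IMR-32 and -42 bp in CHP-134, and the WDR5 summit at 32 and 29.5 bp downstream. At ribosomal protein sites alone, WDR5 was at 120 bp and N-MYC at 96.5 bp in IMR-32. EEF2 (150 bp), RPS3 (127 bp), RPL5 (122 bp) and RNPS1 (110 bp) are examples of the WDR5 position in IMR-32.

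**Figure D2:**
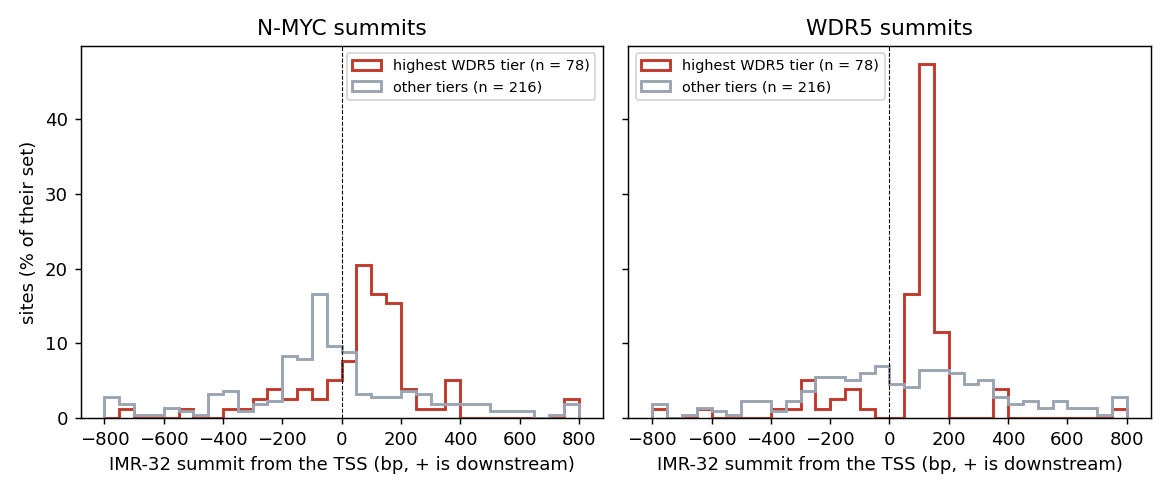
Distance of the IMR-32 summits from the nearest TSS of the gene that gives the site its name. Shown are the 294 shared sites within 1 kb of a TSS, N-MYC on the left and WDR5 on the right. The x axis is the distance in bp, positive downstream, with sites beyond the axis counted in the outermost bins, and the y axis is the percent of sites in the highest WDR5 tier (red) or in the other tiers (gray). In the highest tier both proteins peak downstream of the TSS, at medians of 96.5 bp for N-MYC and 114 bp for WDR5, and elsewhere the N-MYC median is upstream.

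CACGTG was searched within 100 bp of the IMR-32 N-MYC summit, on 1 strand since it is its own reverse complement. It was present at 138 shared sites (44.5%, 38.9 to 50.2%), against 42.9% of all 4054 N-MYC consensus regions of IMR-32, so the shared sites were near the background. It was present at 28.1% of the cobound sites of IMR-32 alone. Not all cobound sites of CHP-134 alone had an IMR-32 N-MYC peak. The 37.2% of them with CACGTG stands beside 42.6% of shared sites at the CHP-134 N-MYC summit. Windows of the same length held CACGTG at 5.69% of all protein-coding TSSs and at 1.29% of places 2 kb from the shared summits. At the WDR5 summits of the shared sites it was found in 22.9%. Other E-box hexamers, namely CACGCG (whose other strand reads CGCGTG) and CATGTG (whose other strand reads CACATG), were found at 108 shared sites (34.8%), against 15.7% of TSSs, and may lie in the same window as CACGTG. Neither kind was found at 106 sites.

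CACGTG was rare where WDR5 ranked highest. It was present at 6 of the 78 sites of the highest WDR5 tier (7.69%), and at 37 of 77, 48 of 77 and 47 of 78 in the following tiers. Of the 44 ribosomal protein sites only RPS2, whose site also holds the TSS of SNHG9, and RPL32 had it. The other 4 in the highest tier were at SNHG15, E2F3, ABCB6 and DDX31. Sites with CACGTG had a median N-MYC percentile of 86.5 and a median WDR5 percentile of 65.5, and those without had 68.7 and 87.6. Summits of N-MYC lay closer between the lines at sites with CACGTG, 31 bp against 65 bp.

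Turning to the compound, N-MYC peaks were listed at most shared sites. Of the 310 sites, 309, 296 and 309 had an N-MYC peak in DMSO replicates 1, 2 and 3, and 270 (87.1%), 160 (51.6%) and 275 (88.7%) in compound replicates 1, 2 and 3. The rule asks for N-MYC peaks in at least 2 DMSO lists, so the DMSO counts are high by the choice of sites. The compound lists had no such rule. The compound replicate with the lowest value is the one with the short list. A peak in at least 2 of the 3 compound lists was found at 261 sites (84.2%, 79.6 to 88.1%), near the 85.3% of all CHP-134 cobound sites that had one. Without replicate 1 or replicate 3 the count rests on the short list and was 160 or 158. By number of lists, 158 sites were in all 3, 103 in 2, 25 in 1 and 24 in none.

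WDR5 peaks were listed at fewer of the shared sites under the compound than under DMSO. The rule asks for WDR5 peaks in at least 2 DMSO lists, so the DMSO counts are high by the choice of sites. The compound lists had no such rule. They were found at 308, 285 and 277 sites in DMSO replicates 1, 2 and 3, and at 201 (64.8%), 12 (3.87%) and 100 (32.3%) in compound replicates 1, 2 and 3. These shares moved with the lengths of the lists, and the part of list length in them was not tested. A peak in at least 2 compound lists was found at 89 sites (28.7%, 23.7 to 34.1%), against 12.6% of all CHP-134 cobound sites. Without compound replicate 1 the count was 11, and without replicate 3 it was 12. At RPL5, RPL29, RPL26, CCT4 and IQCH (a site it shares with AAGAB) no peak of either protein was in any compound list.

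**Figure D3:**
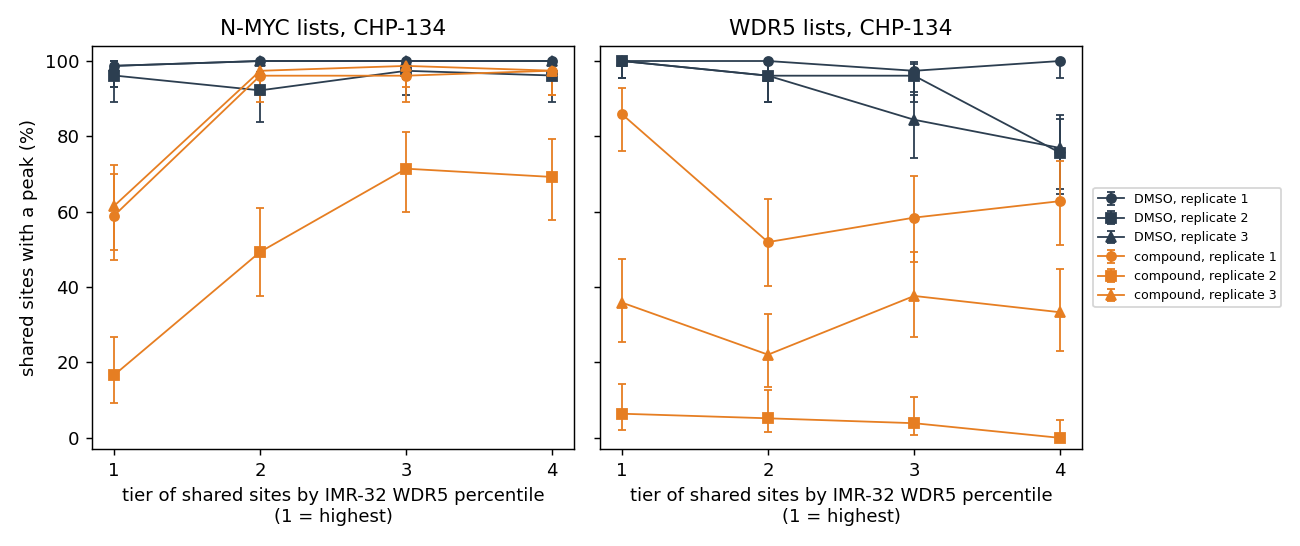
Share of shared sites with a peak in each CHP-134 list, by tier of IMR-32 WDR5 percentile (1 is the highest). The y axis is percent of sites with exact 95% intervals, and each line is 1 library. In DMSO lists N-MYC is near the top in every tier, which the choice of sites fixes. In all 3 compound lists the N-MYC share is lowest in the highest WDR5 tier, at 46, 13 and 48 of 78 sites.

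N-MYC was listed least often under the compound where WDR5 ranked highest. In the highest WDR5 tier N-MYC was listed at 77, 75 and 77 of 78 sites under DMSO, and at 46, 13 and 48 under the compound. The choice of sites fixes the high DMSO counts, so the tiers are compared within the compound lists. The following tiers gave 74, 38 and 75 of 77, then 74, 55 and 76 of 77, and 76, 54 and 76 of 78 in the compound lists. In each of the 3 libraries, the short one included, the highest tier was the lowest. Of the 24 sites with no N-MYC peak in any compound list, 23 were in the highest tier, and the remaining one was GRN. A peak in at least 2 compound lists was found at 40, 72, 74 and 75 sites from the highest tier to the lowest, and the share over the lower tiers was 43.98 points above that of the highest. The tiers were defined by IMR-32 values, and with tiers by the CHP-134 DMSO rank the difference was 42.3 points. The split was chosen after the values were seen and has no p.

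Ribosomal protein sites carried much of this and not all of it. Among the 44, N-MYC was listed at 20, 5 and 24 in compound replicates 1, 2 and 3, against 250, 155 and 251 of the other 266 sites. At 16 of the 44 it was in at least 2 compound lists and at 15 in none. RPL35, RPL23A and RPL18 were among those with N-MYC in all 3. In the 36 sites of the highest tier that hold no ribosomal protein gene, N-MYC was listed at 27, 9 and 26. Leaving out the ribosomal protein sites brought the difference between the tiers from 43.98 to 26.2 points.

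The same counts were made apart by DMSO N-MYC rank and by E-box, again chosen after the values were seen and with no test. The part of either in the counts by tier was not tested. Among sites at or over the median DMSO N-MYC percentile of 80.5, N-MYC was listed under the compound at 27, 11 and 28 of 32 in the highest WDR5 tier and at 123, 112 and 123 of 123 in the others. Among those below it, the numbers were 19, 2 and 20 of 46 against 101, 35 and 104 of 109. Among sites with no CACGTG, they were 41, 9 and 44 of 72 against 94, 43 and 96 of 100. Among sites with CACGTG they were 5, 4 and 4 of 6 against 130, 104 and 131 of 132. In both tier groups, sites below the median N-MYC rank were listed less often than those at or over it in each library. At the 11 cobound sites of CHP-134 alone whose DMSO WDR5 percentile was at or over 95.9, the boundary of the upper tier by that measure of the shared sites, N-MYC was listed under the compound at 5, 0 and 4, against 998, 557 and 1012 of the other 1106.

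Where N-MYC was still listed, its rank differed as well. The median N-MYC percentile of listed sites in the highest WDR5 tier was 41, 35 and 51 in compound replicates 1, 2 and 3, and 85, 65 and 90 in the other tiers. At ribosomal protein sites the mean over libraries of the median percentile was 36.2 ± 10.4 (SD, n = 3) under the compound and 76.6 ± 2.84 (n = 3) under DMSO. At the other shared sites these were 77.8 ± 13.2 and 85.8 ± 4.16 (n = 3 each). These medians are over listed sites only, so a site that dropped out of a list does not count in them.

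**Figure D4:**
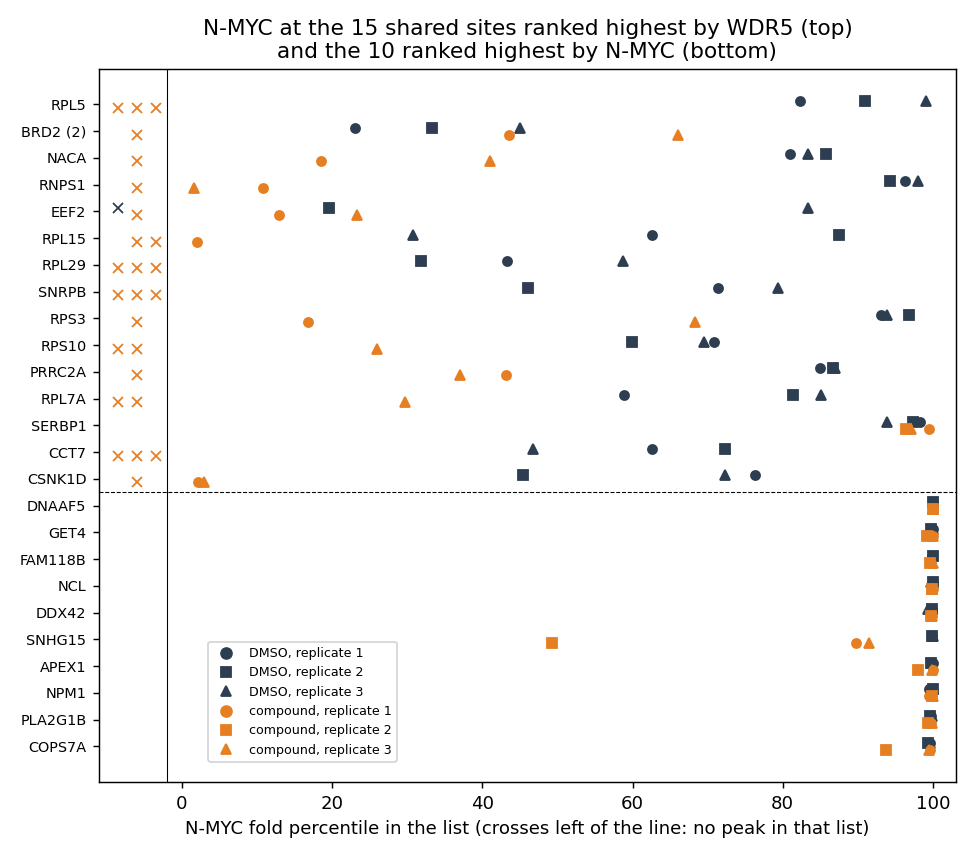
N-MYC fold percentile in each CHP-134 list at the 15 shared sites with the highest WDR5 rank and the 10 with the highest N-MYC rank. Blue symbols are DMSO and orange symbols compound libraries, and a cross left of the line means no peak in that list. The 10 lower sites stay near 100 in both conditions apart from SNHG15 and 1 value at COPS7A, and the upper sites shift to the left or to crosses, apart from BRD2 and SERBP1 and with some overlap at EEF2. The 10 lower sites were picked by their DMSO and IMR-32 N-MYC ranks, which fixes their high DMSO values.

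Gene by gene, RPL5 had N-MYC percentiles of 82.3, 91.0 and 99.1 in DMSO replicates 1, 2 and 3, 99.9 and 99.7 in IMR-32, and no peak in any compound list. RNPS1 (chr16:2317326-2318856, middle in a UTR) had 96.3, 94.3 and 98.1 under DMSO. Under the compound it had 10.8 in replicate 1, 1.66 in replicate 3 and no peak in replicate 2. The listed values of the groups did not overlap at RNPS1, and RPL5 had no compound value to compare. At RPS3 (chr11:75110258-75111856, middle in an intron), the uS3 protein of the small subunit, the DMSO values were 93.0, 96.8 and 93.9. The compound values there were 16.9 and 68.4 with none in replicate 2. At NACA they were 81.0, 85.7 and 83.4 under DMSO, then 18.6, none and 41.01. Every listed compound value at RNPS1, RPS3 and NACA was below every DMSO value there. These sites were named for their WDR5 rank, and the share of all shared sites with such a separation is not given here.

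The ribosomal protein sites with no N-MYC in any compound list had been called in every DMSO list at ranks that ran widely. RPL24 had N-MYC percentiles of 92.7, 37.1 and 88.9 in DMSO replicates 1, 2 and 3, RPS3A had 69.5, 77.5 and 88.98, and RPL12 had 81.1, 26.2 and 39.8. The ChIP-QPCR loci RPS6 (chr9:19379274-19380665) and RPL17 (chr18:47017943-47019189), both with the middle in an intron, belonged to them too. RPS6 had 74.3, 19.5 and 6.27 under DMSO and RPL17 had 56.01, 8.84 and 91.5. WDR5 was at 95.2 or more in each DMSO list at both, and in the compound lists it was found in replicate 1 only. These are single sites, and over all shared sites missing calls were more frequent below the median DMSO N-MYC rank, as the counts by rank above show.

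Other ribosomal protein sites had N-MYC calls under the compound. RPL35, a ChIP-QPCR locus on chromosome 9, had 69.5, 70.2 and 78.2 under DMSO and 0.178, 10.9 and 33.7 under the compound, so the groups did not overlap. RPL23 had 97.3, 94.1 and 94.9 and then 68.5, none and 76.3. RPL27 was a case of overlap, with 89.3, 55.1 and 90.8 under DMSO and 80.5, none and 87.7 under the compound. EIF4G3, the remaining ChIP-QPCR locus named here, was no shared site, because IMR-32 had no N-MYC consensus region there.

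Neither chaperonin gene had an N-MYC call under the compound. CCT7 (chr2:73460553-73462287, middle upstream of the TSS) had N-MYC percentiles of 62.5, 72.3 and 46.8 under DMSO, and CCT4 (chr2:62114235-62116316, middle in an intron) had 80.7, 86.5 and 4.57. DPY30 had none there either. It had 34.4 and 42.4 in DMSO replicates 1 and 3 and none in replicate 2. SNRPB, a core protein of the spliceosomal particles, had 71.3, 46.0 and 79.4 under DMSO and none under the compound. It was the only one of the 14 splicing genes in no compound N-MYC list. PPP2R2A, a regulatory subunit of protein phosphatase 2A, had 70.1, 97.7 and 92.3 under DMSO and none under the compound.

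All 7 genes found from the translation factor list, NACA included, had N-MYC in at least 2 compound lists, against 84.2% of all shared sites. EIF3D, a subunit of the initiation factor that binds the small subunit, had 96.3, 96.6 and 78.4 under DMSO and 73.5, none and 54.1 under the compound. EIF4G1, the scaffold of the cap-binding complex, had 97.5, 97.8 and 98.2, then 90.6, 37.6 and 97.6. EEF2 had no peak, 19.5 and 83.4 under DMSO and 12.9, none and 23.3 under the compound, so its groups overlapped. So had all 9 cell cycle genes, all 6 DNA repair genes and 13 of 14 splicing genes, and with so few genes none of these counts stands out from the 84.2% of all shared sites and 85.3% of CHP-134 cobound sites. CDK4, a kinase of the G1 phase, had 98.6, 99.4 and 98.5 under DMSO and 99.2, 98.8 and 99.1 under the compound.

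Most of the 10 sites with the highest N-MYC rank were high in every list. They were picked by their DMSO and IMR-32 ranks, so only their compound values were free of that choice. DNAAF5, a dynein assembly factor, had percentiles of 99.97 or more in every N-MYC list of both conditions and both lines. NCL and NPM1, the abundant nucleolar proteins nucleolin and nucleophosmin, did not go below 99.3 in any. GET4, which helps insert tail-anchored proteins into membranes, had its lowest value, 99.2, in the short compound list. APEX1, a DNA repair endonuclease, and FAM118B, whose site also holds RPUSD4, stayed at 98.0 or more. SNHG15 departed most among them, and COPS7A had 1 lower value, 93.8 in the short compound list. SNHG15 had 99.9 in each DMSO list and then 89.7, 49.2 and 91.5 in the compound lists, and it is also the one of these 10 in the highest WDR5 tier, with a WDR5 percentile of 98.3. SERBP1, a ribosome-binding protein, was an exception the other way, with a WDR5 percentile of 98.5 and N-MYC at 98.3, 97.4 and 93.9 under DMSO and 99.5, 96.4 and 97.1 under the compound. Its N-MYC summit was 338 bp from its WDR5 summit in IMR-32 and 211 bp in CHP-134.

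By E-box, N-MYC was listed under the compound at 135, 108 and 135 of the 138 sites with CACGTG, and at 135, 52 and 140 of the 172 without. All 3 lists held 108 of the 138 and 50 of the 172, and none held 1 and 23. The 1 site with CACGTG and no N-MYC peak in a compound list was chosen here after its values were seen; it is RPL32.

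Under the compound, the sites that led the WDR5 lists were different ones. Among the 30 shared sites with the highest WDR5 fold in each DMSO list, 16, 17 and 18 were ribosomal protein sites, 2 in each had CACGTG, and all 30 were in the highest tier. In IMR-32 the ribosomal protein sites numbered 20 and 17, with 0 and 2 sites that had CACGTG. In compound replicate 1, only 2 of the 30 were ribosomal protein sites, while 22 had CACGTG and 6 were in the highest tier. In compound replicate 3, these were 1, 26 and 5. Of the 12 sites listed in replicate 2, 3 were ribosomal protein sites and 7 had CACGTG. For N-MYC the leading 30 held CACGTG at 25, 25 and 27 sites under DMSO and at 27, 26 and 29 under the compound. This count was made after values had been seen and has no test.

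GET4 and LAMP1, a glycoprotein of the lysosomal membrane, were first and second among shared sites in all 3 compound WDR5 lists. GET4 (chr7:915687-916276, middle upstream of the TSS) had WDR5 percentiles of 98.9, 94.5 and 94.7 under DMSO and held the highest fold of each compound list, at 51.2, 13.2 and 37.6 times background. LAMP1 had 98.0, 93.3 and 94.0 under DMSO and 99.98, 93.3 and 99.8 under the compound, where replicate 2 has 15 peaks in all. AMDHD2, TRMO and UBE2Q1 came next in replicate 1, and WASHC2A, UBE2Q1 and AMDHD2 in replicate 3. AMDHD2, an enzyme of amino sugar metabolism, had 96.9, 89.9 and 68.5 under DMSO and 99.97, 60.0 and 98.0 under the compound. By contrast RPL5, with 99.4, 98.5 and 99.9 under DMSO, had no WDR5 peak there, and CCT7, with 99.2, 99.9 and 98.4, had 54.0 in replicate 1 only. RPS3 had 80.3 in replicate 1 only.

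The shortest compound WDR5 list held 12 shared sites. GET4, LAMP1, FAM118B, TRMO, KAT5 (a histone acetyltransferase), AMDHD2 and HEXA (a lysosomal hexosaminidase) were among them, as were RPL23, RPL7 and CSNK1D. All but RPL7, which had no peak in replicate 3, were in each of the 3 compound WDR5 lists, 11 sites in all. As examples from the shortest list, the WDR5 and N-MYC summits at TRMO were 3 bp apart in IMR-32 and 1 bp in CHP-134. They were 20 and 14 bp apart at KAT5, 23 and 0 bp at AMDHD2, and 40 and 19 bp at FAM118B. The distances at the other sites of that list, GET4 and LAMP1 among them, are not given here.

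Ranks of the shared sites by WDR5 under DMSO and under the compound were weakly related. The Spearman correlation was 0.218 over the 200 sites in both lists of replicate 1 and 0.135 over 95 sites in replicate 3. For N-MYC it was 0.771, 0.758 and 0.780 over 269, 160 and 275 sites. N-MYC and WDR5 of the same compound replicate correlated at 0.221 over 171 sites and 0.238 over 94. These values describe sites that share libraries and list lengths.

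By tier, the WDR5 counts under the compound did not run as those of N-MYC did. From the highest to the lowest, WDR5 was listed at 67, 40, 45 and 49 sites in compound replicate 1, at 5, 4, 3 and 0 in replicate 2, and at 28, 17, 29 and 26 in replicate 3. Ribosomal protein sites were listed at 39, 3 and 15 of 44. The highest tier was thus not the lowest in any compound WDR5 list. Over the ribosomal protein sites that were listed, the median WDR5 percentile was 98.97, 97.5 and 97.8 in DMSO replicates 1, 2 and 3 and 98.0 and 97.1 in IMR-32. In the compound lists it was 62.4 over 39 sites in replicate 1, 26.7 over 3 sites in replicate 2 and 38.9 over 15 sites in replicate 3. Percentiles in lists of 15 and 401 peaks are coarse and stand on another set of peaks than those of the DMSO lists, so the value that can be set beside DMSO replicate 1 is that of compound replicate 1.

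**Figure D5:**
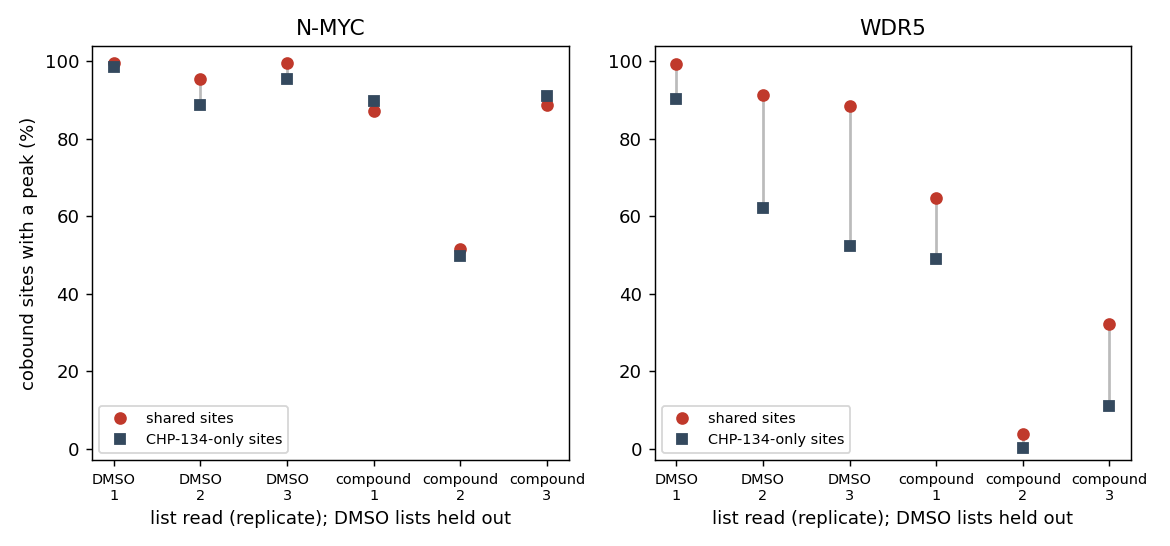
Shared sites against the cobound sites of CHP-134 alone in the lists that did not build the groups compared. The y axis is the percent of sites with a peak, the x axis names the library, circles are shared sites and squares the others. The WDR5 circles lie above the squares in all 6 libraries, and the N-MYC circles in 4 of 6.

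Lists that did not take part in the choice were then used to ask whether shared sites differed from the 1117 cobound sites of CHP-134 alone. The compound lists were used as they are, and for each DMSO list the groups of sites were rebuilt without it. WDR5 was listed at a larger share of shared sites in 6 of 6 libraries, by 19.2 ± 12.2 points (mean ± SD, n = 6 lists; exact sign-flip permutation test, two-sided, p = 0.03125, the smallest this design can give, adjusted p = 0.0625 over 4 tests). In the held-out DMSO lists the shares were 99.2, 91.3 and 88.4% of shared sites against 90.4, 62.1 and 52.3%. In the compound lists they were 64.8, 3.87 and 32.3% against 48.9, 0.179 and 10.9%. The direction was the same in every library and the adjusted p did not pass 0.05.

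WDR5 rank gave a mean difference of 14.96 ± 11.1 percentile points (n = 5 lists, 4 higher, exact permutation test, two-sided, p = 0.125, adjusted p = 0.167, smallest possible p = 0.0625). Compound replicate 2, with 12 and 2 listed sites, was left out of it. The exception in direction was compound replicate 3, with a median of 53.2 at shared sites and 55.0 at the others. For N-MYC the shared sites ranked higher in 6 of 6 lists, by 6.96 ± 3.20 points (n = 6, exact permutation test, two-sided, p = 0.03125, adjusted p = 0.0625). The share of sites with N-MYC differed by 1.48 ± 3.65 points (n = 6, 4 higher, exact permutation test, two-sided, p = 0.375, adjusted p = 0.375), less than the spread between lists. It was higher at shared sites in the 3 held-out DMSO lists and in compound replicate 2, and lower in compound replicate 1 (87.1 against 89.8%) and replicate 3 (88.7 against 91.0%).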

How the data were processed

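The N-MYC and WDR5 ChIP-seq libraries of CHP-134 and IMR-32 were read from 16 deposited peak lists, 1 per library. Per the study's methods, the authors removed adapters (Cutadapt), mapped to hg19 (Bowtie2) and ran MACS2 with a q-value cutoff of 0.05 on each library. Versions and the control library are not given in the sources used here. The deposited fold is the authors' linear ratio over local background and ranked peaks within a list. The p-value and q-value were deposited on a −log10 scale, and the latter chose summits and stricter peak sets. The score that the authors deposited beside them was not used. The 6 IgG samples were not analysed here.

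Consensus regions follow the study's rule (at least 2 libraries), without DiffBind. Groups came from the labels. The members and the gene lists were chosen with earlier results of these data known. TSSs came from GENCODE 44 on GRCh37. Sites named were the highest by WDR5 (15) and N-MYC (10), the ChIP-QPCR loci of the study, those of the shortest compound WDR5 list and of the gene lists, those differing most between lines, over 10 kb from a TSS, without compound N-MYC or with the smallest overlaps. A site took the name of the nearest coding gene within 1 kb, otherwise of a noncoding gene. Sites outside this rule, such as the leading sites of compound lists, were named after values were seen, and some sites that the rule names are not reported here. Tests were exact sign flips over lists, two-sided, adjusted by Benjamini-Hochberg over 4. The building of the site groups was checked on simulated lists, and the sign-flip p on typed-in differences only. Alternatives were the libraries, thresholds, overlaps, windows, summaries, the replicate block and leaving out each library. Python 3.11.15, pandas 2.3.3, numpy 2.4.6, scipy 1.17.1 and pysam 0.24.0 were used.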

Additional observations from a re-analysis of the deposited data

How the results depend on the processing

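Over 167 alternatives, 132 left the value within its spread or on its side of the threshold, 33 moved it, 18 of them by leaving out a library, and 2 reversed it. In the 4 tests, the sign-flip test over at most 5 lists cannot give a p below 0.0625. Unless the sign turned, such alternatives counted among the 132 by design and are no evidence of stability. With peaks from 1 or more libraries 812 sites were shared, and with equal numbers of the strongest regions 190 (252 to 406 when 1 library was left out). Leaving out a CHP-134 library gave 252 to 308. Without an IMR-32 library its antibody had 1 left, so peaks in 1 library then sufficed in IMR-32. That looser rule also enters the other ranges below in which sites were rebuilt. The share of IMR-32 cobound sites that were shared, 71.9%, was 55.7% when every library was required, 44.1% with equal numbers and 58.5 to 71.46% with 1 library left out. The share near a TSS was 91.3% within 500 bp and 87.7% with canonical coding TSSs. CACGTG was found at 50.3% of sites within 250 bp, at 58.1% in the whole site and at 38.5 to 47.0% with 1 library left out. The lowest value was without IMR-32 N-MYC replicate 2, under the looser rule. The difference in the share with N-MYC turned negative, at -1.07 points with the compound lists only and -6.22 points where a peak had to cover a site by its larger part; the cause was not tested. N-MYC was in all 3 compound lists at 158 sites, and in at least 2 at 158 to 259 with 1 library left out. WDR5 was in 1 or more at 213, in all 3 at 11, and in at least 2 at 11 to 88 with 1 left out. Mean summit distances between lines were 101.8 bp for N-MYC and 89.7 bp for WDR5, and the medians ran from 42 to 57 bp and from 34 to 45 bp with 1 library left out. The difference between WDR5 tiers, which like its alternatives was added after seeing the data, was 26.2 points without ribosomal protein sites, 29.1 points with N-MYC in 1 or more compound lists, and 43.98 to 47.5 points with 1 library left out.

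With the replicate number as a block (the DMSO and compound list of a number averaged first, n = 3, smallest possible p = 0.25, exact permutation test), the differences between shared sites and those of CHP-134 alone were 1.48 points (p = 0.5) and 6.96 percentile points (p = 0.25) for N-MYC, and 19.2 points (p = 0.25) and 16.1 percentile points (p = 0.25) for WDR5. None of the 4 tests passed an adjusted p of 0.05 as reported or in any other setting. No setting could therefore turn a passing test into a failing one, and with 5 lists or fewer none could pass. Only lists of peaks were used, so a missing peak can reflect a library's depth, which is unknown.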
